A study of Drosophila melanogaster with 382 samples.

Results

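The genes CG13711, CG15382, CG34137, CG44005, CG18812 and CG5568 are 6 of the 13587 genes named in an expression table of cryosliced Drosophila melanogaster embryos. They were picked by symbol because earlier results on the same embryos had them far lower in mutant lines than in wild type at cycle 14D, so that difference is a description here and was not tested. They had been grouped as short-lived early genes. The grouping may have drawn on the same wild-type stages, so its match with them is a description. The early part of the label held for CG13711, CG15382 and CG34137, which were nearly silent at cycle 11 and rose by cycle 13. Of these, CG15382 and CG34137 still stood at 539 and 1392 FPKM at cycle 14E, so the stages did not show them to be short-lived. The stages went against the early part for CG44005, CG18812 and CG5568, which already stood at 125 to 158 FPKM at cycle 11. These are called here the genes present at cycle 11. FPKM counts sequenced fragments relative to transcript length and to the mapped fragments of the library.

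A fly embryo starts on RNA that its mother loaded into the egg. The early nuclear cycles are fast divisions of a syncytium with little transcription, and the embryo's own genes come on in force around cycle 14, while membranes grow in between the nuclei (cellularization) and much of the maternal RNA is cleared. Many of the first genes to be transcribed are short, lack introns and are active only briefly. Zelda, the protein of the gene vfl (zld), binds the regulatory DNA of many of these early genes and opens it. Bicoid (bcd) is the maternal protein that patterns the anterior, and Hunchback (hb) is a gap gene protein supplied both maternally and zygotically.

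The series measured 382 slices cut from anterior to posterior from 25 single embryos, of which 338 slices had FPKM values. In the bcd RNAi line (2 embryos at cycle 13, 2 at cycle 14D) a maternal tubulin Gal4 driver expressed a short hairpin against bcd in the mothers, and in the hb RNAi line (1 at cycle 13, 2 at cycle 14D) the same driver expressed one against hb. The line labelled G20, called 2.4x bcd here (2 at cycle 13, 2 at cycle 14D), carries extra bcd as an eGFP-Bcd transgene. The zld embryos (1 each at cycles 11, 14A, 14B and 14D, 3 at cycle 13) came from mothers with zld mutant germline clones and carry His2Av-RFP. Wild type was Canton-S, with a single embryo for every stage (cycles 11 and 13 and 14A, 14B, 14C, 14D and 14E), and its reads were taken over from an earlier study.

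TruSeq chemistry with yeast carrier RNA was used for wild type and zld, and SMARTseq2, without carrier and on thinner slices, for bcd RNAi, 2.4x bcd and hb RNAi. Kit, slice width and genotype therefore change together for those lines against wild type and cannot be told apart. By the paper's methods the mothers of the RNAi embryos were also aged for longer than those of the 2.4x bcd and zld embryos. Maternal age and genotype cannot be told apart between the RNAi lines and these. The early blastoderm genes eve and ftz were measured at cycle 14D in every line, at 10.1 to 284 FPKM and at 11.98 to 615 FPKM in the mutants, against 25.4 and 20.6 FPKM in wild type. No wild-type stage was repeated, and every comparison with wild type at a stage shares the same embryo. In these bulk slices, fewer cells of a kind and less RNA in each cell cannot be told apart. The targeted RNAs were checked first. At cycle 13 bcd stood at 6.31 and 9.72 FPKM in bcd RNAi embryos and at 132 and 156 FPKM in 2.4x bcd embryos, against 94.2 FPKM in wild type. At the same cycle hb stood at 4.55 FPKM in the hb RNAi embryo, against 26.8 FPKM in wild type. None of these differences was called in limma at cycle 13. At cycle 14D bcd stood at 0.928 and 1.84 FPKM in bcd RNAi, at 11.3 and 4.21 FPKM in 2.4x bcd and at 0.723 and 0.622 FPKM in hb RNAi, against 72.05 FPKM in wild type at 14D and 2.04 FPKM at 14E. The 2.4x bcd embryos at 14D were thus lower in bcd than wild type at 14D, against their label, and higher than wild type at 14E. Wild type had 8.10 FPKM of bcd at 14B and 24.7 FPKM at 14C, so the single 14D embryo stood above the stages around it. Directions drawn from the 2.4x bcd embryos at 14D are directions of the libraries labelled 2.4x bcd. The gene vfl stayed at or below 0.645 FPKM in 6 of the 7 zld embryos and reached 5.01 FPKM in that at cycle 14B, against 2.302 to 10.2 FPKM in wild type. The deposited values carry no counts. The steps between low values gave an estimated depth for 222 slices with a median of 2489000 fragments, and at the depth of wild type at cycle 14D a level of 1 FPKM stood for between 0.692 fragments a slice for CG13711 and 3.29 for CG18812.

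The genes that rose by cycle 13 are compact. CG13711 (FBgn0035572) is a single exon of 826 bases at 3L, 4757883 to 4758708, plus strand of release 6, inside an intron of RhoGEF64C, which stayed at or below 1.33 FPKM in every embryo. CG15382 (FBgn0031393) is a single exon of 1038 bases at 2L, 2155753 to 2156790, plus strand, 364 bases from AIF, and 307 of its bases overlap exons of aop on the opposite strand. The TruSeq kit was unstranded and the paper states no strand for SMARTseq2, so reads from those shared bases cannot be assigned. Over the embryos aop stood at 4.04 to 46.0 FPKM. At 14D, where CG15382 was low, it stood at 46.0 and 36.1 FPKM in bcd RNAi, 18.9 and 20.8 FPKM in 2.4x bcd and 29.6 and 45.8 FPKM in hb RNAi. CG34137 (FBgn0083973), known as dunk, lies at 2L, 22151623 to 22152640, plus strand, in an intron of CG42748, and its unspliced transcript of 887 bases carried nearly all of its kallisto signal. In the fly embryo dunk acts in the organisation of cortical myosin at the start of cellularization.

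The genes present at cycle 11 have introns, with at least 3 exons in each annotated transcript. CG44005 (FBgn0264747) lies at 3L, 18070300 to 18072123, minus strand, 150 bases from CG44006 and 239 bases from CG44004, both of which stayed low, at up to 0.121 FPKM and up to 3.28 FPKM. CG18812 (FBgn0042135), now named Gdap2, lies at 2R, 7716807 to 7735622, minus strand, has 6 annotated transcripts and is 26 bases from CG1946. CG5568 (FBgn0035641) lies at 3L, 5871501 to 5873518, plus strand, with a transcript of 1911 bases, 208 of which are shared with CG18586 on the same strand. The farther neighbours, CG12493 and CG7509 around CG13711, CG10874 by CG15382, CycK and Clamp around CG34137 and vn and CG13287 around CG5568, lie between 4145 and 44369 bases away.

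In wild type, CG13711, CG15382 and CG34137 shared one time course: nearly no RNA at cycle 11, 354 to 677 FPKM at cycle 13, a peak at cycle 14C and a lower level at cycle 14E. From cycle 11 through 13, 14A, 14B, 14C and 14D to 14E, CG13711 had 0.339, 467, 635, 572, 855, 393 and 76.3 FPKM, each the mean over the slices of 1 embryo. CG15382 had 1.80, 354, 1289, 1383, 1436, 888 and 539 FPKM over the same stages. CG34137 had 3.75, 677, 2179, 2950, 3487, 1678 and 1392 FPKM and was the most abundant of the set from cycle 13 on, on a scale that corrects for transcript length. Of the 7110 genes that reached 15 FPKM in a slice, 139 stood below 5 FPKM at cycle 11 and at least 10-fold higher at cycle 14C. The 3 genes differed in how fast they went down after the peak: the level at cycle 14C over that at cycle 14E was 11.2-fold for CG13711, 2.66-fold for CG15382 and 2.51-fold for CG34137.

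CG44005, CG18812 and CG5568 followed another course. They were already abundant at cycle 11, stayed between 47.7 and 215 FPKM through cycle 14D and were several-fold lower at cycle 14E. CG44005 had 158, 191, 215, 103, 155, 119 and 15.2 FPKM over the 7 stages. CG18812 had 125, 151, 136, 80.7, 74.3, 125 and 19.3 FPKM, and CG5568 had 143, 128, 92.3, 61.7, 47.7, 81.3 and 19.6 FPKM. All 3 dipped at cycle 14B or 14C and were higher again at 14D, a difference that 1 embryo a stage cannot separate from the spread between embryos. The cycle 14E level was lower than the cycle 14D level by 7.80-fold for CG44005, 6.49-fold for CG18812 and 4.15-fold for CG5568, and by 5.16-fold for CG13711, 1.65-fold for CG15382 and 1.21-fold for CG34137. Over the 3405 genes at 15 FPKM or more at cycle 14D the median of that fold was 1.24 and 3.79% were lower by at least 4-fold, as were 4 of the 6 genes here.

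**Figure D1:**
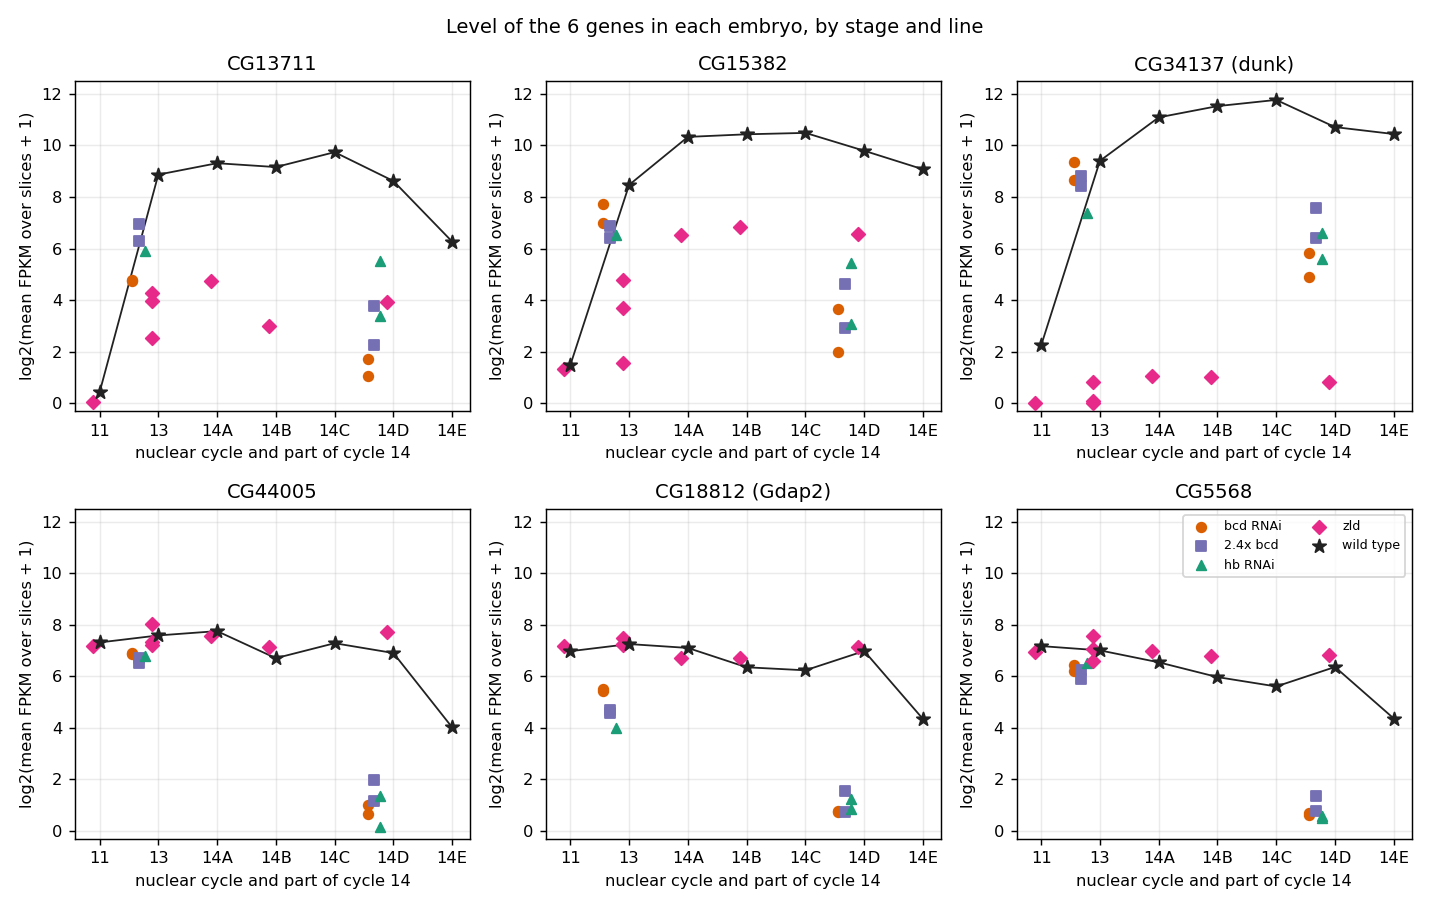
Level of each of the 6 genes in each of the 25 embryos, as log2(mean FPKM over slices + 1), against nuclear cycle. Circles are bcd RNAi, squares 2.4x bcd, triangles hb RNAi, diamonds zld and stars joined by a line wild type. The upper row shows genes nearly absent at cycle 11, the lower row genes at 125 to 158 FPKM in wild type at cycle 11.

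At cycle 14D all 6 genes were far lower in bcd RNAi, 2.4x bcd and hb RNAi embryos than in wild type, which is the contrast that chose them, and no test is given. CG13711 had 1.09 and 2.32 FPKM in bcd RNAi embryos, 12.7 and 3.83 FPKM in 2.4x bcd embryos, 44.3 and 9.42 FPKM in hb RNAi embryos and 14.4 FPKM in the zld embryo, against 393 FPKM in wild type. CG15382 had 2.98 and 11.6 FPKM in bcd RNAi, 23.8 and 6.67 FPKM in 2.4x bcd, 42.4 and 7.45 FPKM in hb RNAi and 94.0 FPKM in zld, against 888 FPKM in wild type. CG34137 had 29.0 and 55.8 FPKM in bcd RNAi, 191 and 84.1 FPKM in 2.4x bcd, 96.4 and 47.3 FPKM in hb RNAi and 0.795 FPKM in zld, against 1678 FPKM in wild type. Every mutant embryo lay below wild type for these genes, and the zld embryo was the lowest of all for CG34137 and the highest of the mutants for CG15382.

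CG44005 had 0.569 and 1.005 FPKM in bcd RNAi, 2.99 and 1.26 FPKM in 2.4x bcd, 1.59 and 0.129 FPKM in hb RNAi and 212 FPKM in zld, against 119 FPKM in wild type. CG18812 had 0.713 and 0.660 FPKM in bcd RNAi, 1.95 and 0.674 FPKM in 2.4x bcd, 1.36 and 0.801 FPKM in hb RNAi and 139 FPKM in zld, against 125 FPKM in wild type. CG5568 had 0.559 and 0.619 FPKM in bcd RNAi, 1.55 and 0.738 FPKM in 2.4x bcd, 0.481 and 0.439 FPKM in hb RNAi and 113.5 FPKM in zld, against 81.3 FPKM in wild type. For these genes the 6 SMARTseq2 embryos were at or below 2.99 FPKM, while both TruSeq embryos were above 81 FPKM, with zld the higher. Wild type stood over the mean of the bcd RNAi, 2.4x bcd and hb RNAi embryos by 55.9-fold to 183-fold for these genes, and by 12.2-fold to 231-fold for CG13711, CG15382 and CG34137. Of the 3405 genes at 15 FPKM or more in wild type, 3.55% were at least 10-fold lower in bcd RNAi, 2.23% in 2.4x bcd and 2.06% in hb RNAi.

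The choice of wild-type stage changed the size of that gap. The SMARTseq2 embryos at cycle 14D were most like wild type at cycle 14E over the 7110 genes, with Spearman correlations of 0.856 to 0.927, a description across genes within single embryos. Against cycle 14E the gap for CG44005 was 19.4-fold in bcd RNAi, 7.17-fold in 2.4x bcd and 17.7-fold in hb RNAi, for CG18812 28.2-fold, 14.7-fold and 17.9-fold in the same order, and for CG5568 33.3-fold, 17.1-fold and 42.6-fold. For CG13711 it was 44.7-fold, 9.23-fold and 2.84-fold, for CG15382 73.8-fold, 35.3-fold and 21.6-fold, and for CG34137 32.8-fold, 10.1-fold and 19.4-fold. Each gap against cycle 14E was narrower than against 14D, and each line's mean stayed below the cycle 14E embryo. The single embryo nearest to that stage was hb RNAi replicate 1, with 44.3 FPKM of CG13711 against 76.3 FPKM in wild type at cycle 14E.

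Other stage-dependent genes moved beside the 6. Among late cycle 14 genes, opa, a pair-rule transcription factor gene, stood at 248 and 214 FPKM in bcd RNAi, 90.7 and 97.2 FPKM in 2.4x bcd, 180 and 202 FPKM in hb RNAi and 0.889 FPKM in zld at cycle 14D, against 0.195 FPKM in wild type at 14D and 22.2 FPKM at 14E. Of a list of 12 late cycle 14 genes, 7 were called higher in bcd RNAi, 6 in 2.4x bcd, 6 in hb RNAi and 0 in zld, and none lower, where a call is an adjusted p below 0.05 in limma and 31.1%, 33.3%, 31.9% and 1.22% of the 6575 genes tested were called higher. Of 18 early transient zygotic genes, 8, 5, 5 and 11 were called lower in bcd RNAi, 2.4x bcd, hb RNAi and zld, and 2, 2, 2 and 0 higher, with 13.7%, 11.3%, 11.9% and 1.64% of all genes called lower. Within that list nullo, a regulator of cellularization, stood at 1.88 and 1.83 FPKM in bcd RNAi, 7.86 and 1.57 FPKM in 2.4x bcd, 1.84 and 1.22 FPKM in hb RNAi and 93.9 FPKM in zld, against 228 FPKM in wild type at 14D and 14.2 FPKM at 14E. Z600, a short zygotic gene that acts on mitotic entry, had values on both sides of wild type: 1445 and 3155 FPKM in bcd RNAi, 1082 and 599.9 FPKM in 2.4x bcd and 2101 and 644 FPKM in hb RNAi, against 2230 FPKM in wild type at 14D and 4920 FPKM at 14E.

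Maternal RNAs at cycle 14D were mixed. Of 9 tested, 5 were called lower in bcd RNAi, 4 in 2.4x bcd, 5 in hb RNAi and 0 in zld, and 0, 2, 1 and 1 higher. Over all genes tested, 13.7%, 11.3%, 11.9% and 1.64% were called lower in these lines, and 31.1%, 33.3%, 31.9% and 1.22% higher. These shares are the background for each list in this paragraph. The RNA of smg, whose protein directs the clearance of maternal transcripts, stood at 8.31 and 6.45 FPKM in bcd RNAi, 24.3 and 14.2 FPKM in 2.4x bcd, 20.8 and 15.7 FPKM in hb RNAi and 350 FPKM in zld, against 166 FPKM in wild type at 14D and 23.8 FPKM at 14E. Of 5 pole cell markers, 1, 0 and 1 were called lower in bcd RNAi, 2.4x bcd and hb RNAi and 0, 2 and 1 higher, and of 6 segmentation genes that mark the blastoderm, 1 was called lower in each of these lines and 3, 1 and 2 higher; none of either list was called in zld. The pole cell RNA pgc stood at 113.5 and 13.6 FPKM in bcd RNAi, 37.4 and 111 FPKM in 2.4x bcd, 125 and 108 FPKM in hb RNAi and 10.8 FPKM in zld, against 7.80 FPKM in wild type, and was called higher in 2.4x bcd and hb RNAi. In the same list nos was called higher in 2.4x bcd, gcl lower in bcd RNAi and hb RNAi, and osk and vas in no line. The segmentation gene called lower in each SMARTseq2 line was hb, itself the target in hb RNAi. The maternal RNAs called lower in these lines included bcd, itself perturbed in both bcd lines. The maternal and pole cell lists share nos, osk, gcl and pgc. With median-ratio scaling, lower calls over all genes made up 1543 of 3126 in bcd RNAi, against 899 of 2942 in FPKM as deposited, 1579 of 3084 against 743 of 2934 in 2.4x bcd, 1620 of 3249 against 783 of 2881 in hb RNAi and 144 of 204 against 108 of 188 in zld. The part of stage, kit, maternal age and genotype in the levels of the 6 genes at cycle 14D was not tested, and cannot be told apart with 1 wild-type embryo and this layout.

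Within a line, cycle 13 gives a level from the same kit. CG44005 had 117 and 120 FPKM in bcd RNAi, 104 and 91.8 FPKM in 2.4x bcd and 109 FPKM in hb RNAi at cycle 13. CG18812 had 44.2 and 42.6 FPKM, 23.2 and 24.6 FPKM, and 14.8 FPKM in the same lines at cycle 13. CG5568 had 73.1 and 86.5 FPKM, 73.9 and 59.3 FPKM, and 89.7 FPKM. These levels stood over the mean of the same line at cycle 14D by 46.0-fold to 150-fold for CG44005, 13.7-fold to 63.2-fold for CG18812 and 58.3-fold to 195-fold for CG5568. The corresponding ratios were 15.5-fold in bcd RNAi, 12.1-fold in 2.4x bcd and 2.21-fold in hb RNAi for CG13711, 23.02-fold, 6.60-fold and 3.62-fold for CG15382, and 12.4-fold, 2.90-fold and 2.33-fold for CG34137. In bcd RNAi, 6 of the 6 genes stood at least 10-fold higher at cycle 13 than at 14D, as did 7.79% of the 4134 genes at 15 FPKM or more at cycle 13. In 2.4x bcd it was 4 of 6 and 6.97% of 4522 genes, in hb RNAi 2 of the 5 genes that reached 15 FPKM and 11.4% of 3549 genes, and in zld 0 of the 3 that reached it and 0.138% of 4352 genes.

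**Figure D2:**
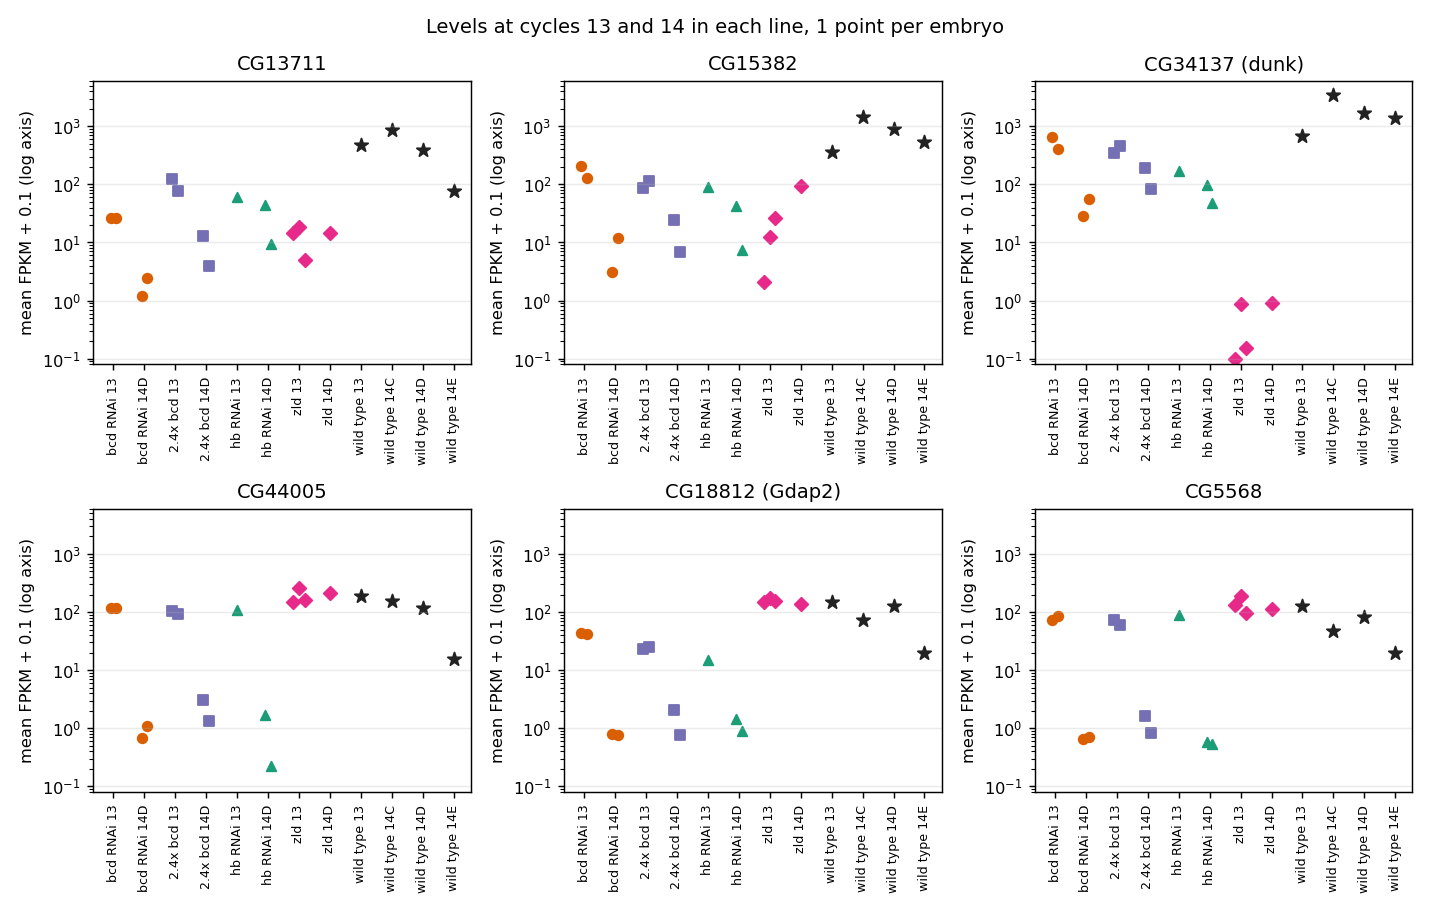
Mean FPKM over slices on a log axis, with a small constant added, for each of the 6 genes at cycles 13 and 14, 1 point per embryo, with the mutant lines to the left of wild type. At cycle 14D the bcd RNAi, 2.4x bcd and hb RNAi points of CG44005, CG18812 and CG5568 lie at or below 2.99 FPKM, while the zld and wild-type points lie between 81.3 and 212 FPKM.

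A single slice raised several of the low values. In 2.4x bcd replicate 1 at cycle 14D, slice 8 had 59.8 FPKM of CG13711, 102 FPKM of CG15382, 346 FPKM of CG34137, 35.6 FPKM of CG44005, 21.2 FPKM of CG18812 and 17.5 FPKM of CG5568. CG44005, CG18812 and CG5568 reached no more than 8.32 FPKM in any other slice of that embryo. The slice also held a median of 26.3 FPKM for 16 genes that were at 50 FPKM or more at cycle 13 in this line and under 2 FPKM in the median slice here. Without it the embryo's mean was 1.27 FPKM in place of 2.99 FPKM for CG44005, 0.937 in place of 1.95 FPKM for CG18812 and 0.711 in place of 1.55 FPKM for CG5568. For CG13711 it was 10.2 in place of 12.7 FPKM, for CG15382 19.7 in place of 23.8 FPKM and for CG34137 182 in place of 191 FPKM.

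Cycle 13 asked whether the genes were already low in mutant embryos that the choice had not used. The wild-type embryo at cycle 13 is the reference for every line at this cycle. It may have entered the grouping as short-lived early genes. The differences and p-values against it at cycle 13 may therefore not be independent of the choice. CG13711 was lower in every line. It had 26 and 26.7 FPKM in bcd RNAi, 123 and 77.3 FPKM in 2.4x bcd, 59.4 FPKM in hb RNAi and 14.7, 18.7 and 4.82 FPKM in zld, against 467 FPKM in wild type. In limma on log2(FPKM + 1) over 6207 genes, with Benjamini-Hochberg adjustment, the difference was -4.10 ± 0.66 (SE) in bcd RNAi (adjusted p = 0.00971), -2.25 ± 0.66 in 2.4x bcd (adjusted p = 0.0339), -2.95 ± 0.77 in hb RNAi (adjusted p = 0.0177) and -5.27 ± 0.63 in zld (adjusted p = 0.0044). All 8 mutant embryos lay below wild type. The hb RNAi line had 1 embryo at this cycle, as did wild type, so the standard error of every hb RNAi difference here comes from the other lines and assumes that both embryos vary as those do. The median of all genes was shifted by 0.51, 0.71, 0.12 and 0.24 on this scale in the 4 lines, in the same order. With median-ratio scaling, which removes that shift, CG13711 differed by -4.61, -3.00, -2.95 and -5.64, all still called. In bcd RNAi the call was lost without replicate 1 (adjusted p = 0.066) or replicate 2 (adjusted p = 0.0809), over all settings 0.000467 to 0.0809. In 2.4x bcd it was lost with kallisto values (-0.82, adjusted p = 0.206), with no filter and without any 1 of the bcd RNAi or 2.4x bcd embryos, over all settings 0.000873 to 0.206. In hb RNAi it was lost with no filter (adjusted p = 0.0614, over all settings 0.000409 to 0.0614).

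CG18812 was lower in the SMARTseq2 lines at cycle 13 in FPKM. It had 44.2 and 42.6 FPKM in bcd RNAi, 23.2 and 24.6 FPKM in 2.4x bcd and 14.8 FPKM in hb RNAi, against 151 FPKM in wild type. The difference was -1.78 ± 0.27 in bcd RNAi (limma, adjusted p = 0.00822), -2.62 ± 0.27 in 2.4x bcd (adjusted p = 0.00122) and -3.27 ± 0.31 in hb RNAi (adjusted p = 0.00157). It depended on the quantification in the bcd lines: in kallisto TPM the difference was -0.30 in bcd RNAi (adjusted p = 0.793) and -0.84 in 2.4x bcd (adjusted p = 0.167), while hb RNAi kept -2.87 (adjusted p = 0.0305). Over all settings the adjusted p ran from 0.00108 to 0.793 in bcd RNAi, where leaving out replicate 1 (0.0644) or replicate 2 (0.0821) also ended the call, and from 0.000162 to 0.167 in 2.4x bcd.

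CG34137 was called lower at cycle 13 in zld and in hb RNAi. It was listed at 0 in all 3 slices of zld replicate 1 and had 0.775 and 0.056 FPKM in zld replicates 2 and 3, and it had 167 FPKM in the hb RNAi embryo, against 677 FPKM in wild type. The difference was -9.10 ± 0.42 in zld (limma, adjusted p = 2.0e-05) and -2.01 ± 0.52 in hb RNAi (adjusted p = 0.0173). In bcd RNAi, with 653 and 401 FPKM, and in 2.4x bcd, with 348 and 449 FPKM, it was not called (-0.40 ± 0.45, adjusted p = 0.55, and -0.78 ± 0.45, adjusted p = 0.218). The hb RNAi call was lost with no filter on low values (adjusted p = 0.051, over all settings 0.00694 to 0.051), and the 2.4x bcd difference was called with median-ratio scaling (-1.53, adjusted p = 0.0438, over all settings 0.0438 to 0.916).

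CG15382, CG44005 and CG5568 were not called in any line at cycle 13. CG15382 had 209 and 127 FPKM in bcd RNAi, 85.2 and 116 FPKM in 2.4x bcd, 90.1 FPKM in hb RNAi and 1.96, 12.1 and 26.4 FPKM in zld, against 354 FPKM in wild type. Its difference in zld, -5.12 ± 1.003, missed the threshold (limma, adjusted p = 0.0555, 0.00725 to 0.244 over the other settings), and it was called with a pseudocount of 5, with median-ratio scaling or without zld replicate 1 or 3 or the hb RNAi embryo. Without zld replicate 1 it was also called lower in 2.4x bcd (adjusted p = 0.0373, 0.0373 to 0.779 over the settings) and in hb RNAi (adjusted p = 0.0396, 0.0396 to 0.524). The zld embryos at cycle 13 had values in only 3, 4 and 5 slices, and its highest value among them was in slice 1 of replicate 3, the only one of these embryos with a value for slice 1. The part of the slices measured in these means was not tested. CG44005 had 149, 259 and 162 FPKM in zld and CG5568 131, 187.5 and 95.3 FPKM in zld, on both sides of the wild-type values of 191 and 128 FPKM. In the SMARTseq2 lines these differences lay between -0.96 and -0.50, with adjusted p from 0.0803 to 0.417. In 2.4x bcd both were called with median-ratio scaling, at -1.71 (adjusted p = 0.0124) for CG44005 and -1.68 (adjusted p = 0.0156) for CG5568, and turned to 0.17 and 0.23 with kallisto values. Without zld replicate 2 or 3, which enter only the shared estimate of the spread, CG44005 was called in 2.4x bcd (adjusted p = 0.0297 and 0.0285), as was CG5568 without zld replicate 3 (adjusted p = 0.0183), where the settings ran from 0.0124 to 0.727 for CG44005 and from 0.0156 to 0.602 for CG5568.

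Of the 6 genes, 2 were thus called lower at cycle 13 in bcd RNAi, where 3.62% of all genes were, 2 in 2.4x bcd, where 3.93% were, 3 in hb RNAi, where 20.3% were, and 2 in zld, where 0.951% were. None was called higher, while 16.1%, 28.4%, 20.4% and 0.58% of all genes were. The median difference of the 6 was -0.90, -1.39, -1.99 and -2.59 in these lines. With median-ratio scaling, lower calls made up 386 of 800 in bcd RNAi, against 225 of 1225 in FPKM as deposited, 667 of 1385 against 244 of 2008 in 2.4x bcd and 81 of 108 against 59 of 95 in zld. The hb RNAi embryo at cycle 13 was most like wild type at cycle 11 (Spearman 0.879, against 0.795 at cycle 13), and the part of its stage in its calls was not tested. At this cycle 10 of 18 early transient zygotic genes were called lower in zld and none higher, against 0 lower and 1 higher in bcd RNAi, 1 and 3 in 2.4x bcd and 3 and 1 in hb RNAi. Of the 10 maternal RNAs 0, 0, 2 and 0 were called lower in bcd RNAi, 2.4x bcd, hb RNAi and zld and 3, 4, 3 and 0 higher.

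**Figure D3:**
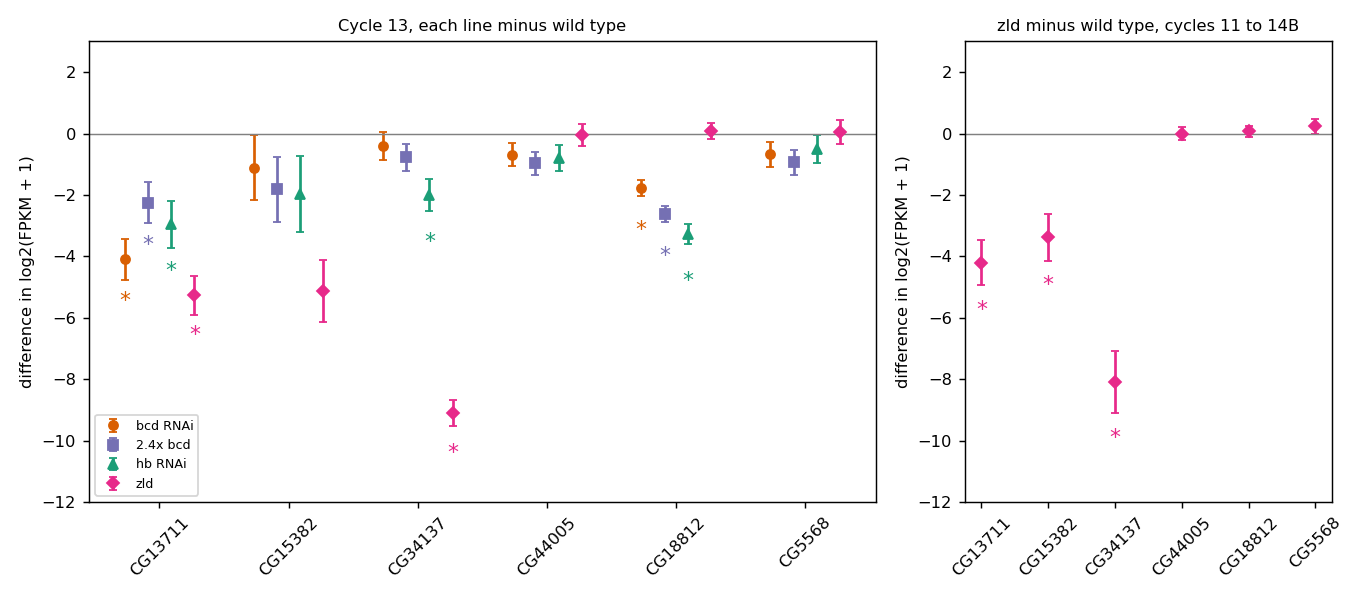
Difference in log2(FPKM + 1) with its standard error for each of the 6 genes, at cycle 13 for each mutant line minus wild type (left) and for zld minus wild type over cycles 11 to 14B (right); an asterisk marks an adjusted p below 0.05. CG13711 lies below 0 with an asterisk in all 4 lines, and in zld CG44005, CG18812 and CG5568 lie near 0.

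The zld embryos and wild type share the kit, and their stages other than 14D were not part of the cycle 14D contrast. The wild-type stages may have entered the grouping as short-lived early genes. The stages matched by label and not by likeness: the zld embryo at cycle 11 was most like wild type at 13 (Spearman 0.893, against 0.888 at 11), and those at 14A and 14B were most like wild type at 14D (0.936 and 0.932). The part of stage in the differences was not tested. CG13711, CG15382 and CG34137 were lower in zld over cycles 11 to 14B, and CG44005, CG18812 and CG5568 were not called. CG34137 was listed at 0 in all 7 slices at cycle 11 and had 1.097 FPKM at 14A and 1.05 FPKM at 14B in zld, against 3.75, 2179 and 2950 FPKM in wild type. CG13711 had 0.05, 26.1 and 7.05 FPKM in zld at cycles 11, 14A and 14B, against 0.339, 635 and 572 FPKM in wild type. CG15382 had 1.54, 90.8 and 113.5 FPKM in zld, against 1.80, 1289 and 1383 FPKM in wild type. All 3 genes were low at cycle 11 in both genotypes, and the genotypes parted by cycle 13.

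With stage as a factor and over 6043 genes, the difference was -8.09 ± 1.002 (SE) for CG34137 (limma, adjusted p = 0.00263), -4.21 ± 0.73 for CG13711 (adjusted p = 0.00542) and -3.38 ± 0.75 for CG15382 (adjusted p = 0.00964), while the median of all genes was 0.32. The fit takes 1 difference for all stages, so the standard error and p-value also hold the change of that difference with stage. Of all genes tested 4% were called lower and 26.7% higher. The direction of the whole table turned on the scaling, with 998 of 1411 calls lower after median-ratio scaling, against 242 of 1854 in FPKM as deposited. The differences of these 3 genes were -8.45, -4.64 and -3.87 after that scaling and were all called. The call of CG15382 was lost with no filter (adjusted p = 0.0578), without the wild-type embryo at cycle 13 (-2.52, adjusted p = 0.0741) or 14B (adjusted p = 0.0626) and without the zld embryo at 14B (adjusted p = 0.0586), over all settings 0.00289 to 0.0741. Without the 3 zld embryos at cycle 13, which was added as a check once the values were known, the differences were -7.59, -3.69 and -2.52, all called.

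CG44005 had 142, 187 and 138 FPKM in zld at cycles 11, 14A and 14B, against 158, 215 and 103 FPKM in wild type, and its difference over cycles 11 to 14B was -0.00 ± 0.22 (limma, adjusted p = 0.989). CG18812 had 146, 104 and 105 FPKM in zld, against 125, 136 and 80.7 FPKM in wild type (0.07 ± 0.19, adjusted p = 0.809). CG5568 had 123, 124 and 109 FPKM in zld, against 143, 92.3 and 61.7 FPKM in wild type (0.24 ± 0.24, adjusted p = 0.487). The sizes that these tests leave possible are set by the standard errors, and with kallisto values CG18812 and CG5568 were called higher in zld (0.75, adjusted p = 0.0433, and 0.91, adjusted p = 0.0215, over all settings 0.0433 to 0.969 and 0.0215 to 0.867). Of the 18 early transient zygotic genes, 15 were lower in zld over these cycles and 0 higher, among them Bsg25A (-6.61 ± 0.84, adjusted p = 0.0029) and scw, a BMP-type ligand gene (-5.43 ± 0.92, adjusted p = 0.00541). Of 10 maternal RNAs 0 were lower and 2 higher, smg (1.16 ± 0.32, adjusted p = 0.0212) and stau (1.55 ± 0.37, adjusted p = 0.0125). No pole cell marker, blastoderm segmentation gene or tested late cycle 14 gene was called in either direction.

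Among the SMARTseq2 lines at cycle 14D, CG44005, CG18812 and CG5568 were at or below 2.99 FPKM in every embryo. The line means of CG13711, CG15382 and CG34137 were farther apart. The choice used these values, so their order is given without a test. The mean of CG13711 was 1.71 FPKM in bcd RNAi and 8.26 FPKM in 2.4x bcd, against 26.9 FPKM in hb RNAi, with the bcd RNAi embryos below all the others. CG15382 averaged 7.31, 15.3 and 24.9 FPKM and CG34137 42.4, 137 and 71.8 FPKM in bcd RNAi, 2.4x bcd and hb RNAi. The embryos of the lines overlapped for CG15382, where hb RNAi held both 42.4 and 7.45 FPKM. They also overlapped for CG13711, with 12.7 FPKM in a 2.4x bcd embryo and 9.42 FPKM in an hb RNAi embryo. For CG34137 a bcd RNAi embryo had 55.8 FPKM and the hb RNAi embryos 96.4 and 47.3 FPKM, while a 2.4x bcd embryo had 84.1 FPKM. Over all 6575 genes, limma called 11.4% between bcd RNAi and 2.4x bcd, 0.487% between bcd RNAi and hb RNAi and 0.943% between 2.4x bcd and hb RNAi.

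Along the axis the genes differed in pattern as well as in level. Profiles were taken from embryos with at least 6 slices that had values, for genes at 15 FPKM or more in a slice, as shares in the anterior, middle and posterior of 3 equal parts. The earth mover's distance (EMD) to a flat profile was read as uniform below 0.04 and patterned above 0.08. In wild type at cycle 14D, 5 of the 6 genes were uniform, as were 84.5% of 3868 genes. CG44005 was the exception. Its posterior share was 31.0% at cycle 11 and 17.1%, 13.6%, 9.30%, 7.66%, 7.24% and 6.55% at cycles 13 to 14E in wild type. At cycle 14D the wild-type slices of CG44005 held 121 to 188 FPKM from slice 1 to 9 and 39.5, 10.4, 6.70 and 7.81 FPKM in slices 11 to 14. A posterior share under 20% was found for 1.63% of genes in that embryo.

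In every mutant embryo with a profile the posterior held the smallest of the 3 shares of CG44005. Its posterior share at cycle 13 was 20.8% and 17.5% in bcd RNAi, 7.86% and 10.9% in 2.4x bcd and 25.7% in hb RNAi, against 17.1% in wild type. In zld it was 15.95% at cycle 11, 9.43% at 14A, 6.49% at 14B and 20.3% at 14D, against 31.0%, 13.6%, 9.30% and 7.24% in wild type. The last 3 slices of the zld embryo at 14D held 153, 85.8 and 28.7 FPKM. CG18812 and CG5568 were instead flat in wild type through most stages and posterior at cycle 14E, when their level was low. At cycle 14E CG18812 had 4.12 FPKM in slice 2 and 63.3 FPKM in slice 13, a posterior share of 64.7%, and CG5568 had 5.30 and 37.5 FPKM in the same slices, a posterior share of 48.4%. CG44005 had 55.7 FPKM in slice 2 and 6.26 FPKM in slice 13 of that embryo, so the 3 genes went down with opposite remainders along the axis.

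**Figure D4:**
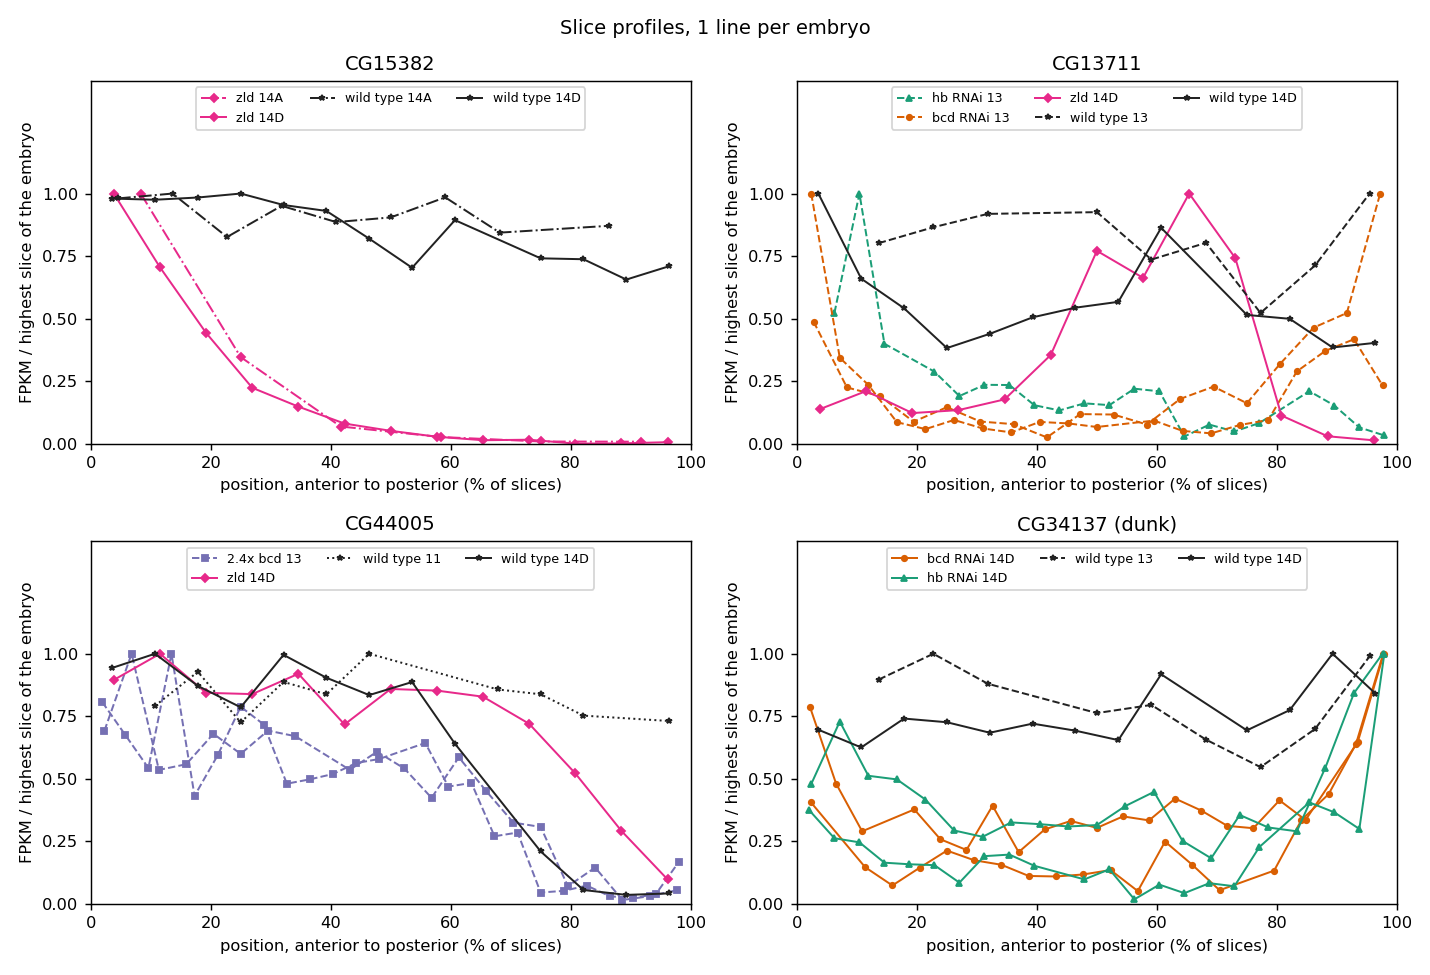
Slice profiles from anterior (left) to posterior (right), each divided by the highest slice of its embryo, 1 line per embryo, for selected lines and stages listed in each panel. CG15382 falls off from the anterior in zld, with 89.2% of its profile in the anterior at cycle 14D against 38.4% in wild type, and CG44005 drops at the posterior.

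What remained of CG15382 in zld embryos lay at the anterior. Its anterior share was 92.4% at 14A, 93.4% at 14B and 89.2% at 14D in zld, against 34.5%, 40.4% and 38.4% in wild type. At cycle 14D the zld slices from 1 to 13 held 451, 318, 199, 101, 66.6, 36.1, 23.01, 12.4, 6.08, 6.97, 0, 0.34 and 2.55 FPKM, while the wild-type slices held 683 to 1041 FPKM. The same decline was seen at 14A, with 374, 129, 25.6, 9.85, 3.13 and 2.84 FPKM, and at 14B, with 466, 322 and 89.8 FPKM in slices 1 to 3 and no more than 13.5 FPKM behind them. At cycle 13 slice 1 of zld replicate 3 had 109 FPKM and slice 2 of replicate 2 had 40.7 FPKM, while no other slice of the 3 embryos passed 20.3 FPKM. The first slice of the zld embryo at 14D was thus lower than the wild-type slices by less than the embryo mean was, at 451 FPKM against 1020 FPKM, and the posterior slices by far more. In the SMARTseq2 lines at cycle 13 the anterior share of CG15382 was 32.7% and 33.3% in bcd RNAi, 43.7% and 30.7% in 2.4x bcd and 47.4% in hb RNAi, against 47.0% in wild type.

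CG13711 was uniform in wild type from cycle 13 to 14D, with EMD from 0.0137 to 0.0353, and patterned at 14E, when 61.6% lay in the anterior. The bcd RNAi, hb RNAi and zld embryos with a profile were patterned, as was 2.4x bcd replicate 1 at 14D. In bcd RNAi at cycle 13 both ends were high: the slice means of the anterior, middle and posterior parts were 21.2, 10.2 and 46.6 FPKM in replicate 1 and 37.5, 9.99 and 30.3 FPKM in replicate 2, against 485, 497 and 436 FPKM in wild type. In hb RNAi the anterior held 62.5% at cycle 13 and 66.8% and 69.8% at 14D. Wild type held 34.2% there at cycle 13, 36.0% at 14D and 61.6% at 14E. In zld the middle held 77.2% at 14A, 81.5% at 14B and 57.6% at 14D, against 40.4%, 29.9% and 35.7% in wild type. In 2.4x bcd at cycle 13 the anterior held 28.5% and 23.3%, with EMD of 0.0207 and 0.0746. At 14D the anterior held 46.5% in replicate 1, with an EMD of 0.143. The highest mutant slice of any line and stage, 272 FPKM in hb RNAi at cycle 13, was below the lowest wild-type slice of cycle 13, 302 FPKM.

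CG34137 was close to flat in most wild-type embryos from cycle 13 on. Its EMD there was 0.00942 to 0.0263 at cycles 13, 14A, 14B, 14D and 14E, and at 14C it was 0.0544, with 7285 FPKM in the last slice and 2666 to 3606 FPKM in the other slices, a posterior share of 43.0% that was 35.9% in kallisto values. In the SMARTseq2 lines at cycle 14D the anterior and posterior parts each held more of the residual RNA than the middle. The last slice measured was the highest of its embryo in each case. It held 120 and 139 FPKM in bcd RNAi, 461 and 232 FPKM in 2.4x bcd and 223 and 216 FPKM in hb RNAi. The posterior share was 52.7% and 40.5% in bcd RNAi, 36.2% and 54.5% in 2.4x bcd and 38.8% and 52.7% in hb RNAi, against 36.4% in wild type. The middle share was 16.1% to 27.0% in these embryos, against 32.9% in wild type. In 2.4x bcd replicate 1 the anterior held 37.4%, more than the posterior. The highest wild-type slice also lay at or near the posterior end at every stage of cycle 14. It was the last slice measured at 14A, 14C and 14E, slice 12 of 13 at 14B and slice 13 of 14 at 14D. In wild type at cycle 11 the little CG34137 RNA present, up to 23.5 FPKM, was in the posterior slices, with 86.1% of the profile there and 0 listed in slices 2 to 6. In zld CG34137 stayed at or below 3.64 FPKM in every slice of the 7 embryos, too low for a profile.

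The orientation of the embryos was checked with bcd RNA, which sits at the anterior pole. Orientation could not be checked this way in 5 of the 6 SMARTseq2 embryos at 14D and in wild type at 14E, where bcd was too low for a profile. It peaked in slice 1 or 2 in the other embryos with a profile of bcd, except wild type at 14B, where slices 1 to 3 had no values and slice 4 was the highest, and 2.4x bcd replicate 1 at 14D, where slice 8 was the highest. Several embryos lacked end slices, and in the profiles a missing slice took the mean of its nearest neighbours. Leaving missing slices out in place of this, or using kallisto values, left 386 recomputed anterior and posterior shares within the spread between replicates and moved 34 by more, nearly all of them with kallisto values.

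Across the 25 embryos the genes were alike within each of the 2 courses and not across them. On log2(mean FPKM + 1) the Pearson correlations among CG44005, CG18812 and CG5568 were 0.954 to 0.988 and those among CG13711, CG15382 and CG34137 were 0.72 to 0.889, while pairs across the courses had -0.21 to 0.38. These are descriptions over embryos that share lines, stages and kits. The genes most like each member by the same measure, among 7110 genes, were CG15382 (0.889) and CG13712 (0.873) for CG13711, Elba3 (0.899) and CG43184 (0.895) for CG15382, and CG14014 (0.980) and Bro (0.966) for CG34137. They were CG5568 (0.988) and Arf51F (0.977) for CG44005, conu (0.978) and CG7979 (0.974) for CG18812, and CG44005 (0.988) and SP2637 (0.973) for CG5568. The genes most like CG34137 shared its course and its level in zld: CG14014 had 0.452 FPKM and Bro 0.565 FPKM in zld at cycle 14D, against 935 and 828 FPKM in wild type. Arf51F, a small GTPase gene, had 263 FPKM in zld at 14D, against 202 FPKM in wild type, with 206 FPKM at cycle 11 and 88.3 FPKM at 14E in wild type.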

How the data were processed

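RNA was sequenced from 382 slices of 25 embryos. The authors aligned reads to FlyBase release r6.03 with STAR and deposited FPKM values per gene from Cufflinks (Cufflinks 2.2.1, STAR 2.3.0.1, from the submitters' processing notes), using fly reads only; the deposited kallisto 0.42 table holds TPM per transcript, since every slice sums to the same total although the columns are named FPKM. Libraries poor in fly reads had been removed by the authors, and 338 slices had FPKM and 340 had TPM. Gene positions came from a release 6 annotation.

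The embryo was the replicate, with the mean FPKM over its slices as its value. Differences were tested with limma 3.58.1 (lmFit, eBayes with trend, two-sided) in R 4.3.3 on log2(FPKM + 1), which understates changes of low genes, for genes at 15 FPKM or more in a slice of the fit, with Benjamini-Hochberg adjustment over all of them and a threshold of 0.05. All lines at a cycle entered 1 fit and shared 1 estimate of the spread; zld was also fitted against wild type over cycles 11 to 14B with stage as a factor. With 1 wild-type embryo a stage, its own variation is assumed to be like that of the replicated groups. This holds for both sides of hb RNAi at cycle 13 and zld at 14D, which are 1 embryo against 1. In the fits of a single cycle p-values measure the spread between embryos. Over cycles 11 to 14B only zld at cycle 13 was replicated. There the residual also holds any change of the genotype difference with stage. The 6 genes at cycle 14D are described without a test. Slice profiles, correlations and depth were computed in Python 3.11.15 (numpy 2.4.6, pandas 2.3.3), and depth was estimated from the steps between low FPKM values of 2160 genes with 1 transcript. The limma step was tested on simulated data.

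Named genes were the 6, the perturbed genes bcd, hb and vfl, the 2 genes most correlated with each, the nearest annotated genes and examples from lists of early transient zygotic, late cycle 14 zygotic, maternal, pole cell and blastoderm segmentation genes. The genes and lists were chosen with earlier results of these data known. Alternatives were kallisto values, a pseudocount of 5, no filter, median-ratio scaling, leaving out each embryo, a replicate block, medians over slices, wild type at 14C or 14E as reference and leaving missing slices out. Leaving out slice 8 of 2.4x bcd replicate 1 at 14D or the 3 zld embryos at cycle 13 was added after the data were seen.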

Additional observations from a re-analysis of the deposited data

Results flagged for a closer look

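CG44005, CG18812 and CG5568 stood higher in the zld embryo than in wild type at cycle 14D, while every bcd RNAi, 2.4x bcd and hb RNAi embryo stood lower than wild type, and the difference between the lines in this respect was not tested. The zld level over the wild-type level was 1.79-fold for CG44005 (212 FPKM in zld, 119 FPKM in wild type), 1.11-fold for CG18812 (139 FPKM in zld, 125 FPKM in wild type) and 1.395-fold for CG5568 (113.5 FPKM in zld, 81.3 FPKM in wild type). Each is 1 embryo against 1, with no replicate of either. On log2(FPKM + 1) the median of all genes was itself 0.314 higher in the zld embryo. The 3 genes were higher by 0.832 for CG44005, 0.149 for CG18812 and 0.476 for CG5568, so CG18812 was raised less than the median gene.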

How the results depend on the processing

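Of the differences fitted for the 6 genes, those between lines at 14D being descriptions, 202 kept their direction and side of the threshold under the alternatives that kept all embryos, 15 not called turned direction, 10 were gained and 7 lost; the cause was not tested. The turned values were, with kallisto, CG44005 in bcd RNAi (0.10), CG34137, CG44005 and CG5568 in 2.4x bcd (0.059, 0.17 and 0.23) and CG44005 in zld (0.54) at cycle 13, CG44005 in zld over cycles 11 to 14B (0.59), and CG44005 and CG5568 in bcd RNAi minus hb RNAi (-0.077 and -0.036). With median-ratio scaling they were CG18812 and CG5568 in zld at cycle 13 (-0.29 and -0.30) and over cycles 11 to 14B (-0.47 and -0.30). CG44005 turned to 0.020 without the 3 zld embryos at cycle 13 and to -0.0081 with a pseudocount of 5 in bcd RNAi minus hb RNAi, and CG18812 to -0.19 without slice 8 in 2.4x bcd minus hb RNAi. Leaving out 1 embryo gave, at cycle 13 in zld, -0.30 to 0.10 for CG44005, -0.0026 to 0.12 for CG18812 and -0.19 to 0.30 for CG5568; over cycles 11 to 14B -0.12 to 0.052 for CG44005 and -0.016 to 0.20 for CG18812; and between lines at 14D -0.81 to 0.010 for CG18812 in bcd RNAi minus 2.4x bcd, -0.55 to 0.65 for CG44005 in bcd RNAi minus hb RNAi, and -0.30 to 0.52 for CG18812 and -1.65 to 0.71 for CG15382 in 2.4x bcd minus hb RNAi.

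Counts of genes called over the whole table moved more. At cycle 13, 1225 genes in bcd RNAi became 98 with kallisto, 612 with no filter and 800 with median-ratio scaling, and 2529 in hb RNAi became 806 with kallisto. Over cycles 11 to 14B, 1854 in zld became 1161 with no filter. At 14D against wild type, 2942 in bcd RNAi became 1927 with kallisto, 2934 in 2.4x bcd and 2881 in hb RNAi became 1844 and 1803 with no filter, and 188 in zld became 118 with kallisto and 377 with no filter. Between lines at 14D, 751 in bcd RNAi minus 2.4x bcd became 11 and 62 in 2.4x bcd minus hb RNAi became 4 with no filter, while 32 in bcd RNAi minus hb RNAi became 5 with kallisto, 13 with a pseudocount of 5, 51 with median-ratio scaling, 21 without slice 8 and 0 with no filter (limma, with 1502 of 12976 genes at an unadjusted p under 0.05). Leaving out 1 embryo gave 47 to 3017 in bcd RNAi, 911 to 3571 in 2.4x bcd, 1945 to 3936 in hb RNAi and 49 to 421 in zld at cycle 13, 434 to 2168 in zld over cycles 11 to 14B, 1609 to 3687, 1532 to 3689, 2274 to 3729 and 98 to 472 in the same lines at 14D, and 27 to 1709, 1 to 757 and 4 to 534 in bcd RNAi minus 2.4x bcd, bcd RNAi minus hb RNAi and 2.4x bcd minus hb RNAi. The wild-type embryos at cycles 13 and 14D could not be left out of the fits of those cycles, having no other to stand in.

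The deviations of same-numbered embryos at 14D correlated at -0.10, -0.32 and 0.18 between the lines, so the numbers do not pair them. A replicate block over the 6 SMARTseq2 embryos gave 688, 51 and 71 genes for bcd RNAi minus 2.4x bcd, bcd RNAi minus hb RNAi and 2.4x bcd minus hb RNAi. Of the levels at 14D relative to wild type, 63 moved by less than the spread between replicates and 37 by more, none turning direction. With the median over slices in place of the mean, for example, CG13711 in hb RNAi replicate 2 was 2.06 in place of 9.42 FPKM and CG15382 in zld 23.01 in place of 94.0 FPKM, and with wild type at 14C as reference the gap of CG13711 in bcd RNAi was 502-fold in place of 231-fold. Depth limits the lowest levels. In the SMARTseq2 lines at cycle 14D, 1 FPKM stood for an estimated 4.19 to 14.4 fragments a slice for CG44005, CG18812 and CG5568. For CG34137 in zld at 14D it stood for 1.905. A mean under 1 FPKM rests on fewer than these a slice.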
